A study of Homo sapiens with 15 samples.

Results

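Gene expression was compared between BEAS-2B cells exposed for 15 weeks to polyethylene terephthalate nanoplastics (PET-NPLs) and their nonexposed controls of the same age in culture. The comparison was set by the sample labels alone: 2 exposed and 2 control libraries, all of batch 1. They are 4 of the 15 libraries of the study. BEAS-2B is an established, virally immortalised line of human bronchial epithelial cells. The exposed cultures received 50 µg/mL of PET-NPLs, made by degrading water bottles, with each change of medium, and the controls were passaged in parallel without particles. The other 11 libraries, used here only to place the 15-week values, are exposed and control cultures of 24 h (4 libraries, the same batch) and of 30 weeks (7 libraries, a second batch). The labels do not say whether replicates came from separate cultures, so p-values measure only the spread between these samples, which may be technical. Because each condition was a culture line kept for weeks, exposure and divergence of the 2 lines in culture cannot be told apart.

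Airway epithelial cells line the conducting airways on a basement membrane and take up inhaled particles. BEAS-2B cells are grown as flat, adherent sheets, and in serum-containing medium they are known to carry a mixture of epithelial keratins and mesenchymal proteins. Extracellular matrix, integrins and growth factor signalling set how such cells attach, move and divide, and changes in these groups are commonly followed in long exposures to particles.

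The total gene counts were 28600021 and 30245594 in the controls and 29232912 and 27257483 in the exposed libraries. Levels are given as CPM, the counts of a gene relative to the library total, after scaling by the trimmed mean of M-values (TMM) and are not corrected for gene length. Replicates correlated across genes at 0.9909 (control) and 0.9913 (exposed), and pairs from different groups at 0.9867 to 0.9909, so exposed replicate 1 was as close to control replicate 1 as that library was to its own replicate. The cell label was only partly borne out by its markers. The epithelial keratins were abundant, with 580 to 724 CPM of KRT8 and 317 to 429 CPM of KRT18, whereas CDH1 and EPCAM, which define epithelial junctions and surfaces, were below 1 CPM in every library and VIM, the mesenchymal intermediate filament, was at 1147 to 1270 CPM. Of the 6 basal cell markers, TP63 and the keratins KRT5 and KRT14 had no counts in any of the 4 libraries. NGFR was below 1 CPM, while KRT15 was at 1.03 to 1.86 CPM and DLK2 at 3.48 to 4.48 CPM. The 6 secretory cell markers summed to under 0.5 CPM in each library. The 6 immune markers, mostly CD68 and CD14, summed to 14.6 and 15.6 CPM in the controls and 9.90 and 13.4 CPM in the exposed libraries, the 6 endothelial markers to 0.685 to 1.64 CPM with overlapping groups, and the 10 mesenchymal markers to 1646 and 1678 CPM against 1749 and 1758 CPM. Among the mesenchymal markers DCN and LUM had no counts, and PDGFRA and COL3A1 were below 1 CPM in every library. CD68, CD14 and VIM were not called, and the part of other cell types in the results was not tested.

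Of 15484 genes tested with edgeR's quasi-likelihood test, 304 (1.96%) were differentially expressed genes (DEGs) at an adjusted p under 0.05. Expression was higher in the exposed cells for 172 DEGs (1.11% of those tested) and lower for 132 (0.852%). Most of the changes were small. The median log2 fold change was 0.47 among the DEGs that rose and -0.55 among those that fell, and only 39 DEGs changed by 2-fold or more, 10 of them higher and 29 lower. The 2 exposed libraries lay entirely above or below both controls for 303 of the 304 DEGs, but the groups also failed to overlap for 7278 of all genes tested (47%). Without a correction for multiple testing, 2549 genes had p under 0.05. Among the DEGs that rose, exposed replicate 2 was farther from the controls than exposed replicate 1 for 126 of 172 (73.3%), beside 82 of 132 (62.1%) of those that fell and 54.9% of all genes tested.

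**Figure D1:**
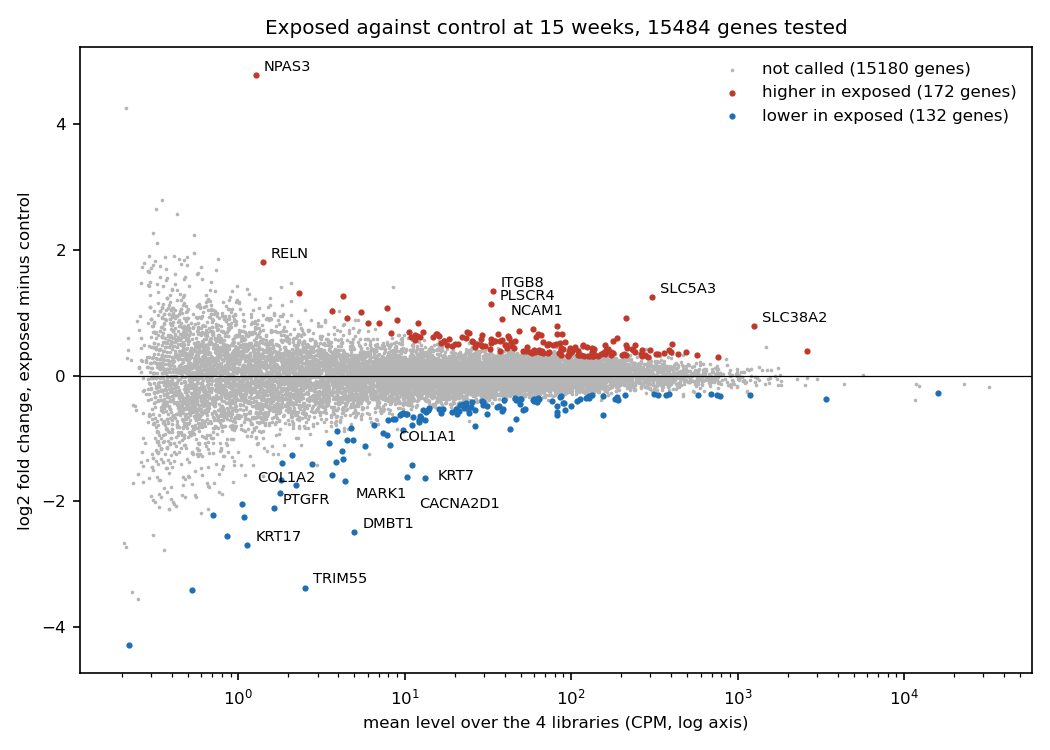
Change against level for the 15484 genes tested. The x axis is the mean of the 4 libraries in CPM (log axis) and the y axis the log2 fold change, exposed minus control. The 172 genes called higher are red and the 132 called lower are blue. Called genes above about 10 CPM mostly lie within 1 log2 unit of 0, and the largest decreases are at low levels.

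The number of calls differed with the libraries in the fit. Such fits change the estimate of spread, the genes that pass the filter and the scaling, and the part of each was not tested. With the 8 libraries of batch 1 in 1 fit the test called 29 genes (9 higher, 20 lower), of which 28 were among the 304, and with all 15 libraries it called none, with 823 at an unadjusted p under 0.05 and a smallest adjusted p of 0.0747. Each of the 304 kept its direction in both fits. The 15-week difference rests on the same 15-week libraries there, so the kept direction is no separate evidence. In 15 other fits restricted to the 15-week libraries, which changed the tool, filter, scaling or depth, added a replicate block or a correction for GC content, or left out 1 library, 61 DEGs (36 higher and 25 lower) were called wherever they had an adjusted p, 53 of them in all 15. Those genes are called the stable DEGs in what follows.

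Genes that rose most were a mixture of secreted, adhesion and transport proteins. NPAS3, a transcription factor of the bHLH-PAS family best known from neurons, had 1 and 4 counts in the controls and 40 and 98 in the exposed libraries (0.035 and 0.13 CPM against 1.37 and 3.56 CPM). The exposed libraries held 138 counts in all and the controls 5, a ratio of 28.8 with a 95% counting interval of 12 to 89.9 (exact binomial, counting error only). NPAS3 was thus near the detection limit in the controls and low but clearly counted in both exposed libraries, and its fitted log2 fold change was 4.78 ± 0.65 (SE, adjusted p = 0.00103). ITGB8, the beta chain of an integrin that releases TGF-beta from its latent form, was at 19.5 and 18.8 CPM in the controls and 33.5 and 63.6 CPM in the exposed libraries, a log2 fold change of 1.34 ± 0.19 (adjusted p = 0.00105). SLC5A3, the sodium-coupled importer of the osmolyte myo-inositol, was at 185 and 176 CPM against 297 and 561 CPM (1.25 ± 0.17, adjusted p = 0.00103). In both genes the controls were almost equal, while the exposed libraries differed more from each other than exposed replicate 1 did from the controls. Without exposed replicate 2 the log2 fold change was 0.81 for ITGB8 and 0.72 for SLC5A3, both still called. With DESeq2 they missed the threshold, at adjusted p = 0.0648 for ITGB8 and 0.0931 for SLC5A3. SLC5A3 shares its locus with MRPS6, which was also called higher (0.53), and reads of the shared part cannot be assigned with certainty.

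NCAM1, a neural cell adhesion molecule, gave one of the most even increases. It was at 22.9 and 30.6 CPM in the controls and 47.0 and 53.3 CPM in the exposed libraries, a log2 fold change of 0.91 ± 0.12 (adjusted p = 0.00103). PLSCR4, of the phospholipid scramblase family, was at 23.1 and 18.5 CPM against 34.9 and 56.5 CPM, a log2 fold change of 1.14 ± 0.16 that was 0.75 without exposed replicate 2 and missed the threshold with DESeq2 (adjusted p = 0.0601). MKX, a homeobox factor known from tendon, roughly doubled from 4.19 and 5.84 CPM to 10.2 and 11.1 CPM (1.08 ± 0.18). COL11A1, a fibrillar collagen chain, was at 4.15 and 3.09 CPM against 7.53 and 7.09 CPM (1.02 ± 0.20). NCAM1 and MKX were stable DEGs, and in both of them the exposed replicates were close.

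The other named increases were in genes of low level: RELN, a large secreted glycoprotein that guides neurons (1.81), OMD, a small keratan sulphate proteoglycan (1.31), the long noncoding RNA IGFL2-AS1 (1.26), BLID (1.03), PAPPA, a protease that cleaves IGF-binding proteins (0.91), NRG1, a ligand of ERBB receptors (0.88), and RTN4RL1, a homologue of the Nogo receptor (0.84). These numbers are log2 fold changes, and the mean level ran from 1.40 CPM for RELN to 9.04 CPM for NRG1. OMD lies inside the span of CENPP and BLID inside that of MIR100HG, which was itself called higher (0.51), so their counts are uncertain if strand was not used in counting. Each of these 7 genes lost its call when some single library was left out. Without exposed replicate 2 the calls of all of them were lost, with NRG1 at 0.34 (adjusted p = 0.562) and RELN at 1.43 (adjusted p = 0.228). Without control replicate 2 those of RELN (1.36, adjusted p = 0.135), IGFL2-AS1, RTN4RL1 and COL11A1 were lost, and without control replicate 1 those of OMD, BLID and PAPPA.

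**Figure D2:**
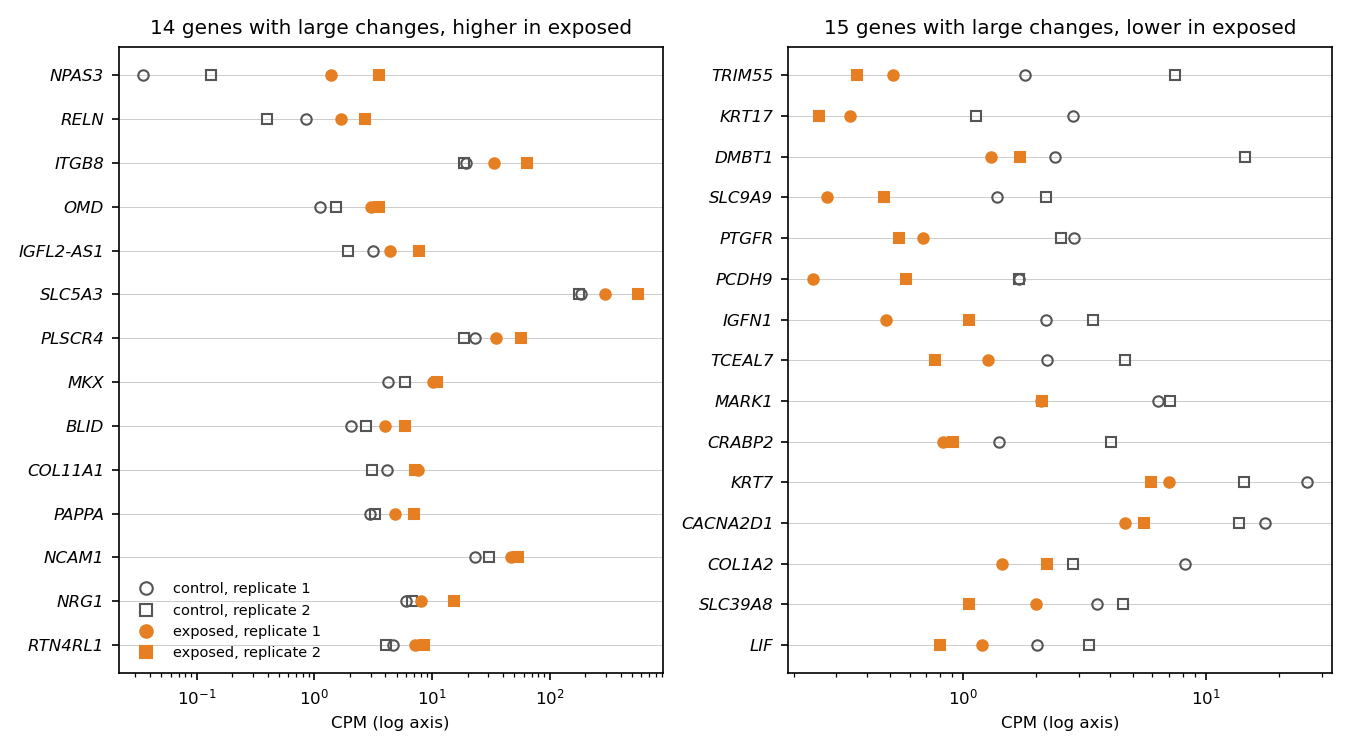
Levels of 14 genes with large increases and the 15 with the largest decreases in each of the 4 libraries. The x axis is CPM (log axis). Open grey symbols are controls and filled orange symbols are exposed libraries, circles for replicate 1 and squares for replicate 2. The groups do not overlap for any of these genes, which the rule of selection required, and for DMBT1 the controls are farther from each other than control replicate 1 is from the exposed libraries.

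Among the decreases, CACNA2D1, an auxiliary subunit of voltage-gated calcium channels, gave the smallest p of the comparison. It was at 17.4 and 13.7 CPM in the controls and 4.62 and 5.56 CPM in the exposed libraries, a log2 fold change of -1.61 ± 0.17 (adjusted p = 0.000157). KRT7, a keratin of simple epithelia, was at 26.1 and 14.2 CPM against 7.05 and 5.92 CPM, a log2 fold change of -1.63 ± 0.21. MARK1, a kinase that acts on microtubule-associated proteins, was at 6.33 and 7.11 CPM against 2.09 and 2.11 CPM (-1.68 ± 0.22). PTGFR, the receptor of prostaglandin F2-alpha, was at 2.85 and 2.52 CPM against 0.685 and 0.545 CPM (-2.12 ± 0.36). All of these were stable DEGs with well separated groups, and CACNA2D1, MARK1 and KRT7 were also called in both the batch 1 fit and the fit of all libraries with surrogate variables.

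For other genes 1 control library carried much of the decrease. TRIM55, a muscle RING-finger ubiquitin ligase, was at 1.79 and 7.41 CPM in the controls and 0.514 and 0.363 CPM in the exposed libraries, and its log2 fold change was -3.38 ± 0.53 with all libraries and -2.02 without control replicate 2. DMBT1, a secreted scavenger-receptor glycoprotein of mucosal surfaces, was at 2.39 and 14.4 CPM against 1.30 and 1.71 CPM. Its log2 fold change of -2.49 ± 0.51 became -0.67 (adjusted p = 0.551) without control replicate 2. CRABP2, a retinoic acid carrier, and TCEAL7 were also higher in control replicate 2, and both lost their calls without it (CRABP2 -0.70, adjusted p = 0.684, and TCEAL7 -1.12). KRT17 and COL1A2 were instead higher in control replicate 1 (2.81 against 1.13 CPM and 8.20 against 2.82 CPM), and without that library KRT17 was at -1.90 (adjusted p = 0.133) and COL1A2 at -0.63 (adjusted p = 0.424). The 2 control libraries thus differed from each other in several of the genes that fell most.

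The remaining large decreases were SLC9A9, an endosomal sodium-proton exchanger (-2.25), the protocadherin PCDH9 (-2.04), IGFN1, an immunoglobulin-domain protein of muscle (-1.88), the zinc importer SLC39A8 (-1.41) and the cytokine LIF (-1.40), all with a mean under 3 CPM. All 5 lost their calls without control replicate 2, PCDH9 also without exposed replicate 1, and SLC39A8 and LIF also without exposed replicate 2. At higher levels CD24, a small glycoprotein of the cell surface, was at 55.5 and 55.3 CPM in the controls and 35.6 and 26.0 CPM in the exposed libraries (-0.84 ± 0.12, adjusted p = 0.00105), and ELAVL2, an RNA-binding protein, went the other way from 64.9 and 54.9 CPM to 101 and 106 CPM (0.79 ± 0.09, adjusted p = 0.000491). CD24 and ELAVL2, both stable DEGs, were chosen for mention after their values were seen.

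The promoters of the named genes are shown because the exposed and control cells were compared for genes that move together, and shared short motifs are one feature of such genes. Promoter sequences were from RefSeq (GRCh38.p14, 250 bases before to 50 after the start, matched for 16 of the 30 genes with the largest changes, 4 of which held a motif searched). They are printed 5′ to 3′ on the gene's own strand, with matches in capitals: the SNAI and ZEB E-box CACCTG, or its reverse complement, in NPAS3 (chr14:32938629-32938928, plus strand), IGFN1 (chr1:201190574-201190873, plus strand) and CRABP2 (chr1:156705735-156706034, minus strand), and the AP-1 motif TGANTCA, found at 2 positions, in SLC9A9 (chr3:143848419-143848718, minus strand).
NPAS3: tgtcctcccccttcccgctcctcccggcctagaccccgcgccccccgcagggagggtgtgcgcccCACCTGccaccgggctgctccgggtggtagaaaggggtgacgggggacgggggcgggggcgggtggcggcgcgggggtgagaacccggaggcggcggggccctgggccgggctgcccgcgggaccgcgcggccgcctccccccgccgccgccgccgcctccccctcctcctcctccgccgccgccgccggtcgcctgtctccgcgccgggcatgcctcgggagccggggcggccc
SLC9A9: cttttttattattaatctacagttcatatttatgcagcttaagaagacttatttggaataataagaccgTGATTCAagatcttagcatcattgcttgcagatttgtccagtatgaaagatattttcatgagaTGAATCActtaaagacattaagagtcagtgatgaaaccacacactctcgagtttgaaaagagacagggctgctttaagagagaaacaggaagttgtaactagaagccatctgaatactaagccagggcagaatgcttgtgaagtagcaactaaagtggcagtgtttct
IGFN1: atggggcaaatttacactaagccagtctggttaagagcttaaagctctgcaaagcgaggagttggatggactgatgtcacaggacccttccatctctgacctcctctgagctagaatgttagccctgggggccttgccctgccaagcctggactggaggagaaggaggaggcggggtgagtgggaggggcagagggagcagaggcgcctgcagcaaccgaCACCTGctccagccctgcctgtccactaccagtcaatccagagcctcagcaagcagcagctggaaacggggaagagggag
CRABP2: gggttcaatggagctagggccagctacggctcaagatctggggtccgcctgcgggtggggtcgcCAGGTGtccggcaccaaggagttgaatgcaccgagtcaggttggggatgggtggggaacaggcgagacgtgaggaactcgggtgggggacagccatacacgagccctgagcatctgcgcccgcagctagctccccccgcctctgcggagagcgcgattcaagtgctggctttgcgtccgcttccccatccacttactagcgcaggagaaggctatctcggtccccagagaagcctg
NPAS3, the gene with the largest increase, has a promoter of 83.0% GC, and that of SLC9A9, which fell, has 36.0% GC.

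The shares of all promoters that hold each motif give the scale for these matches. The E-box was in 16 of 140 promoters of genes that rose (11.4%), 20 of 95 of those that fell (21.1%) and 18.3% of the 11777 promoters of all tested genes. The AP-1 motif was in 6.43%, 5.26% and 4.77%, the TEAD motif GGAATG in 6.43%, 5.26% and 11.1%, the cyclic AMP response element TGACGTCA in 2.14%, 6.32% and 3.18%, and the interferon response motif (TTTC, any 2 bases, TTTC) in 2.14%, 1.05% and 2.93%, in the same order. Both strands were searched, these shares are a description without a test, and a match is not a binding site.

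Matrix lists had more of their members called than the 1.96% of all genes tested, and their medians were below 0. Calls went in both directions only in the collagen, elastic fibre and matricellular lists. All gene lists were chosen with earlier results of these data known, so their shares are a description. Of 21 basement membrane genes tested, 2 fell and none rose (9.52% called), and the list's median log2 fold change was -0.23, against -0.0025 over all genes tested. AGRN, the proteoglycan agrin, was at 91.2 and 101 CPM in the controls and 68.1 and 69.3 CPM in the exposed libraries (-0.49 ± 0.09, adjusted p = 0.00847) and was a stable DEG. LAMB3, a chain of the epithelial laminin-332, was at 19.8 and 26.3 CPM against 16.9 and 14.1 CPM (-0.57 ± 0.14), while its partner chain LAMA3 (-0.08) did not pass. Among 31 interstitial collagens and their enzymes 3 fell and 2 rose (16.1%). COL1A1, a chain of type I collagen, fell from 12.5 and 9.86 CPM to 5.48 and 4.87 CPM (-1.11 ± 0.17, adjusted p = 0.003), and COL8A1 fell as well (-0.79), whereas PLOD2, which hydroxylates collagen lysines for crosslinking, rose (0.32) beside COL11A1.

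Elastic fibre genes went both ways: of 16 tested (31.2% called), EFEMP1 (0.38), FBLN1 (0.62) and the crosslinking enzyme LOX (0.45) rose and EFEMP2 (-1.02) and FBN2 (-0.35) fell. Of 19 matricellular genes (21.1% called), CCN3, a secreted regulator of adhesion, rose (0.65) and TGFBI (-0.32), the glypican GPC1 (-0.32) and the proteoglycan VCAN (-1.42) fell. VCAN was the DEG whose groups overlapped: the controls were at 6.97 and 25.3 CPM and the exposed libraries at 4.97 and 7.12 CPM, and without control replicate 2 it was at -0.21 (adjusted p = 0.808). ITGB8 was the one integrin of 17 to be called. Of 27 focal adhesion genes 2 fell (7.41%), among them the scaffold BCAR1 (-0.42). Of 20 contractile genes and YAP target genes 1 fell (5%), the calponin-family protein TAGLN (-0.53). The 11 contractile genes had a median of -0.17 and the 9 YAP target genes, none of them called, a median of 0.07. Of 28 protease and inhibitor genes 2 fell (7.14%), among them the protease ADAM19 (-0.57). No member of these 3 lists rose. With the correction for GC content and length the median of the interstitial collagen list was -0.04 in place of -0.11 and that of the elastic fibre list -0.05 in place of -0.17, while that of the basement membrane list stayed at -0.23.

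None of 7 factors of epithelial-mesenchymal transition (EMT) and none of 29 junction genes tested was called. SNAI2 (-0.37 ± 0.23), ZEB1 (-0.04 ± 0.10), ZEB2 (0.25 ± 0.09) and TWIST1 (0.17 ± 0.14) were among them. Of 11 keratins (18.2% called, beside 1.96% of all genes), KRT7 and KRT17 fell, and KRT8 (0.10 ± 0.09) and KRT18 (0.10 ± 0.10) did not pass the test. A panel of 27 EMT genes that the study had chosen on these same samples, and which is therefore no independent evidence of direction, held 1 gene that rose (FBLN1) and 7 that fell: COL1A1, VCAN, EFEMP2, GPC1, the gap junction protein GJA1 (-0.38), the lectin LGALS1 (-0.31) and BASP1 (-0.34). Its median was -0.21, and 29.6% of its members were called, beside 1.96% of all genes tested. Fibronectin FN1 was at 236 and 238 CPM against 236 and 224 CPM (-0.05 ± 0.07), and CDH2, N-cadherin, at 176 and 174 CPM against 194 and 203 CPM (0.19 ± 0.08, adjusted p = 0.213). A second panel of 15 lung cancer genes, chosen by the study in the same way, had 26.7% of its members called and a median of 0.20. It held 3 that rose, ITGB8, MET and BMPR2, and 1 that fell, JUN. MET, the receptor of hepatocyte growth factor, was at 280 and 291 CPM in the controls and 362 and 366 CPM in the exposed libraries (0.35 ± 0.07, adjusted p = 0.0171).

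The signalling lists ranged from no calls to 14.3% of members called, beside 1.96% of all genes. In the TGF-beta and activin list (32 tested, 9.38% called), SKIL, a transcriptional repressor that limits SMAD signalling, rose from 69.4 and 81.1 CPM to 107 and 110 CPM (0.53 ± 0.09, adjusted p = 0.00657), and INHBB, an activin subunit (-1.32), and FSTL3, an activin-binding antagonist (-0.55), fell. In the BMP list (21 tested, 14.3% called), the receptor BMPR2 rose from 52.0 and 59.1 CPM to 73.0 and 87.3 CPM (0.53 ± 0.10, adjusted p = 0.0117) and the antagonists GREM1 (-0.44) and CHRDL1 (-0.94) fell. SKIL and BMPR2 were stable DEGs. No ligand or receptor was called in the Wnt list (31 tested), and of 47 growth factor and receptor kinase genes (6.38% called), MET and NRG1 rose and GAS6, a ligand of the TAM receptors, fell (-0.37).

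TLR4, the receptor of lipopolysaccharide, rose from 65.9 and 70.7 CPM to 95.7 and 122 CPM (0.67 ± 0.10, adjusted p = 0.00253), and in the inflammatory list of 32 genes the other call was the decrease of LIF. None of 41 interferon-stimulated genes and none of 20 genes of MHC class I presentation passed the threshold, with medians of -0.07 and -0.14. Of 34 immediate early genes tested (8.82% called, beside 1.96% of all genes), JUN (-0.58), the phosphatase DUSP1 (-0.54) and IER3 (-0.71) fell and none rose. The list as a whole barely moved, with a median of -0.04 and 13 genes above 0. JUN was at 98.1 and 99.2 CPM in the controls and 76.4 and 55.9 CPM in the exposed libraries. IER3, a stable DEG, was at 15.2 CPM in both controls and 8.83 and 9.74 CPM in the exposed libraries.

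Stress lists and particle-handling lists differed in their share of calls. In the NRF2 list (36 tested, 8.33% called, beside 1.96% of all genes), BACH1, a repressor of NRF2 targets, and GCLM, a subunit of the enzyme that starts glutathione synthesis, rose (0.42 and 0.38), and the peroxidase GPX1 fell (-0.33). ATF4, the factor of the integrated stress response, fell from 214 and 221 CPM to 168 and 164 CPM (-0.39 ± 0.08, adjusted p = 0.013) as the only call of 36 endoplasmic reticulum and heat stress genes. CYP1B1 (-0.59), the metallothionein MT1E (-0.48) and the kinase PLK2 (-0.29) fell, and the sterol enzyme MSMO1 rose (0.36), each as the sole call of its list, with 19, 9, 29 and 33 genes tested (5.26%, 11.1%, 3.45% and 3.03%). LOX was the sole call of 36 HIF target and glycolysis genes, 4 of 426 zinc finger genes rose and 1 fell, and none of 14 muscle genes was called. None of 47 lysosome and autophagy genes and none of 32 genes of particle uptake was called, with medians of -0.04 and -0.01.

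Cell cycle lists had a share of calls near that of all genes (1.96%): RFC3 rose (0.31) among 58 genes of G1 and S phase (1.72%) and KIF20A fell (-0.31) among 37 of mitosis (2.7%). No cytosolic ribosomal protein (of 79) and no nuclear-encoded subunit of oxidative phosphorylation (of 78) was called, with medians of -0.08 and -0.07. Of 65 replication-dependent histone genes 5 fell (7.69%, beside 0.852% of all genes called lower): H4C6 (-0.70), H2AC25 (-0.60), H2AC15 (-0.50), H2AC20 (-0.31) and H3C15 (-0.31). These genes have near-identical copies between which reads cannot be assigned with certainty. The signal recognition particle RNA RN7SL2 fell (-0.28) and all 6 abundant small noncoding RNAs lay below 0. Together they took 11.4 and 11.3% of the counts in the controls and 10.2 and 9.75% in the exposed libraries.

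Of the 62 DEGs that belong to any of these lists, 30 lost their call without control replicate 2, 24 without control replicate 1, 24 without exposed replicate 2 and 10 without exposed replicate 1, with adjusted p of 0.0502 to 0.808 among those lost. The calls lost without control replicate 2 included VCAN, LAMB3, INHBB, TGFBI, COL8A1, CHRDL1, GREM1 and CCN3, and those lost without exposed replicate 2 included JUN, DUSP1, EFEMP2, TAGLN and FBLN1. Beside the genes given above, single libraries moved the log2 fold change by over 1.5 times for COL8A1 (-0.36), LAMB3 (-0.36) and CHRDL1 (-0.61) without control replicate 2, for EFEMP2 (-0.64), JUN (-0.37), H2AC15 (-0.29) and MRPS6 (0.29) without exposed replicate 2, for H4C6 (-0.40) without control replicate 1 and for CYP1B1 (-0.37) without exposed replicate 1, all then not called.

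Genes of chromosome 21 were higher in the exposed cells as a group. Of 168 tested, 21 were called higher (12.5%, against 0.983% on all other chromosomes) and 1 lower, and 136 of 168 (81%) had a log2 fold change above 0. The median was 0.23, against -0.0047 for genes elsewhere. The shift was seen in each library, relative to the mean of the 4 libraries on the log2 scale. The median chromosome 21 gene was at -0.10 and -0.12 in the controls and 0.11 and 0.12 in the exposed libraries. The replicates thus agreed and the groups did not overlap. Library medians also did not overlap on most other chromosomes, where the groups lay closer together. On chromosome 22, for example, they were 0.06 and 0.07 in the controls and -0.06 and -0.05 in the exposed libraries. The chromosome 21 shift was also spread along the chromosome, with medians of 0.25, 0.25 and 0.22 in successive windows of 20 Mb.

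The chromosome 21 DEGs have unrelated functions. DYRK1A, a kinase, was at 141 and 138 CPM in the controls and 184 and 186 CPM in the exposed libraries (0.41 ± 0.08, adjusted p = 0.0117). IFNAR1, a chain of the type I interferon receptor, was at 68.5 and 62.1 CPM against 86.8 and 95.9 CPM (0.48 ± 0.09, adjusted p = 0.0115). BACH1 was at 115 and 120 CPM against 156 and 157 CPM, and CXADR, the coxsackievirus and adenovirus receptor of cell junctions, was at 37.4 and 30.1 CPM against 50.8 and 51.3 CPM (0.60 ± 0.11). RIPK4, a kinase of epithelial differentiation, was at 13.2 and 12.2 CPM against 18.9 and 20.2 CPM (0.63 ± 0.13). These 5 were stable DEGs, and SLC5A3 is on the same chromosome. The one decrease was NCAM2, an adhesion molecule, at 1.55 and 1.39 CPM in the controls and 0.24 and 0.254 CPM in the exposed libraries. The names LOC102724200 and LOC102724428 among these 21 are annotated copies of other genes, and their reads are uncertain.

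Smaller shifts of other chromosomes ran in both directions. Upward, the median was 0.09 on chromosome 13, 0.06 on chromosome 18 and 0.05 on chromosome 10. On chromosome 13, 68.6% of genes were above 0 and 7 of 287 were called higher (2.44%, beside 1.11% of all genes). Downward, the median log2 fold change was -0.11 on chromosomes 4 and 22 and -0.07 on chromosome 5. Genes called lower were 10 of 502 on chromosome 4 (1.99%), 10 of 376 on chromosome 22 (2.66%) and 16 of 727 on chromosome 5 (2.2%). Of all genes tested 0.852% were called lower. On chromosome 4 only 27.1% of genes were above 0. For chromosome 21 the median was -0.03 at 24 h and 0.53 at 30 weeks, in cultures that share no library with those of 15 weeks. For chromosome 4 it was -0.03 and -0.33, and for chromosome 13 -0.04 and 0.31. Not all the shifts were larger at 30 weeks: the median was then 0.01 on chromosome 5 and 0.03 on chromosome 10. It was 0.13 on chromosome 18 and -0.19 on chromosome 22. The chromosome 21 median stayed between 0.22 and 0.26 in every alternative, but its count of calls did not. It was 0 with all 15 libraries, 2 in the batch 1 fit, 10 without control replicate 2 and 13 with the correction for GC content and length, directions combined. Median GC content of the genes tested was 42.3, 43.0 and 45.0% on chromosomes 13, 18 and 10, and 56.0% on chromosome 22. It was 42.2% on chromosome 4, 43.8% on chromosome 5 and 48.6% on chromosome 21, beside 47.9% over all genes tested. Chromosomes 19 (58.2%) and 16 (55.2%) had a median log2 fold change of -0.06 and -0.04 at 15 weeks. Copy number was not measured, and the parts of copy number and base composition in these shifts were not tested.

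The DEGs also differed in base composition and length. The longest transcript of genes that rose had a median GC content of 39.5% and a median length of 5809 bases, and of genes that fell 55.2% and 3231.5 bases, beside 47.9% and 3643 bases over all genes tested. With genes split into 5 equal classes by GC content, in the class of lowest GC 95 of 2968 rose (3.2%) and 13 fell (0.438%). In that of highest GC 3 of 2962 rose (0.101%) and 48 fell (1.62%). Over all genes tested 1.11% rose and 0.852% fell. This slope was present in all genes and differed between replicates. The median gene of the lowest class was at 0.08 and 0.01 in the exposed libraries and at -0.01 and -0.07 in the controls, and that of the highest class at -0.07 and -0.03 against 0.03 and 0.08. In the lowest class exposed replicate 2 and control replicate 1 were nearer to each other than to their own replicates. With a correction for GC content and length in each library, an alternative chosen after seeing the data, 171 genes were called, 89 higher and 82 lower, 139 of them among the 304. The part of base composition in single calls was not tested.

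**Figure D3:**
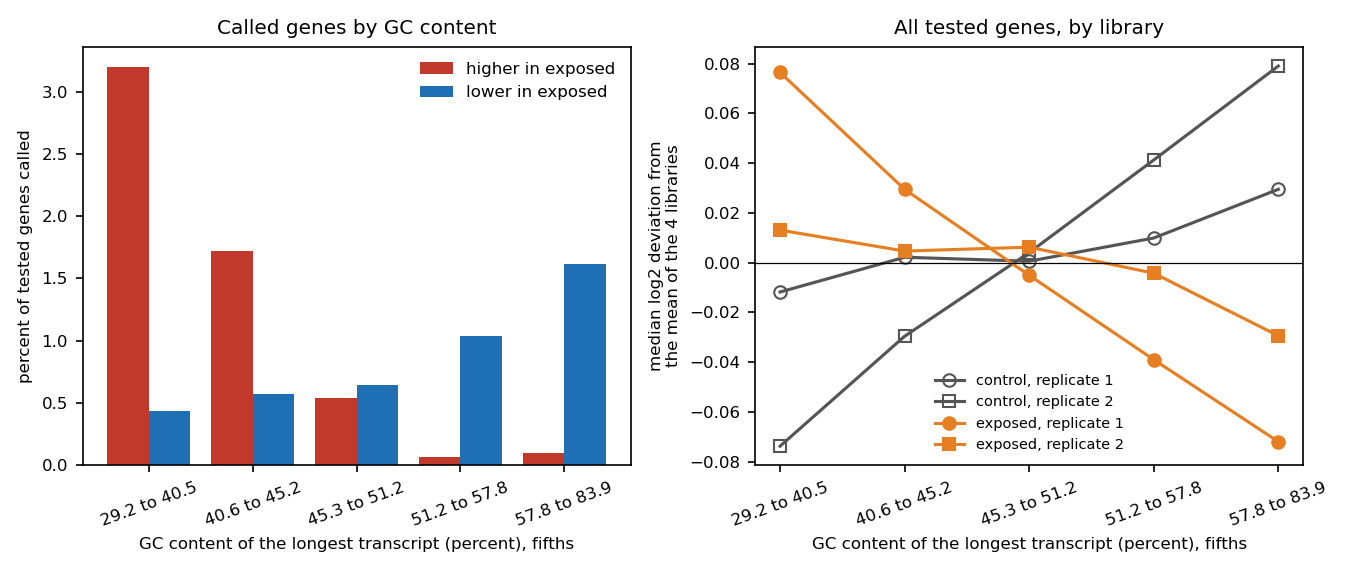
Base composition and change. Left, percent of tested genes called higher (red) or lower (blue) in 5 equal classes of GC content of the longest transcript. Right, median log2 deviation of all genes in each class from the mean of the 4 libraries, for controls (open grey) and exposed libraries (filled orange). Calls higher go from 3.2% in the lowest class to 0.101% in the highest, and calls lower from 0.438% to 1.62%.

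To place the 15-week changes in time, each was set beside the comparisons at 24 h and 30 weeks. At 24 h, none of 15017 genes was called by edgeR on those libraries alone (397 had an unadjusted p under 0.05 and the smallest adjusted p was 1). Only 4 of 16077 genes (0.0249%) differed in their effect between 15 weeks and 24 h, among them KRT7 (-1.69, adjusted p = 0.0313) and PTGFR (-1.80, adjusted p = 0.0371), so for the other named genes a difference from 24 h was not shown. DESeq2 called 54. At 30 weeks, in a second batch, 2370 of 15519 genes (15.3%) were called. Of the 172 genes that rose at 15 weeks, 57 were called at 30 weeks, 52 in the same direction. Of the 131 that fell and were tested at 30 weeks, 61 were called, 49 in the same direction. Among all 14941 genes tested at both times, 2164 were called at 30 weeks, 1505 of them in the direction of their 15-week change. The effect differed between 15 and 30 weeks for 794 of 16740 genes (4.74%), a difference in which batch and time cannot be told apart.

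The controls themselves changed greatly with time, which sets the level at which several 15-week differences stand. On a scale common to all 15 libraries, KRT7 was at 1220 to 1410 CPM in both groups at 24 h, at 12.7 and 23.4 CPM in the 15-week controls, at 5.29 and 6.39 CPM in the 15-week exposed cells and at 1.25 to 3.29 CPM in both groups at 30 weeks. KRT17 went from 120 to 166 CPM at 24 h to under 3 CPM in all later libraries. The decreases of these keratins at 15 weeks were thus differences within the low remainder of a loss that both lines shared. NCAM1 went the other way, from 0.128 to 0.312 CPM at 24 h to 20.6 and 27.1 CPM in the 15-week controls, 42.6 and 47.6 CPM in the exposed cells and 57.7 to 86.0 CPM in both groups at 30 weeks. CACNA2D1 was at 0.07 to 0.17 CPM at 24 h, and at 30 weeks it was at 15.7 to 21.4 CPM in the controls and 0.704 to 3.22 CPM in the exposed cells.

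DMBT1 and TRIM55 were at most 12.8 and 6.58 CPM in the 24 h and 15-week libraries and high in the 30-week controls alone, where DMBT1 was at 138 to 191 CPM and TRIM55 at 93.6 to 129 CPM, against at most 1.96 and 2.49 CPM in the 30-week exposed cells. CRABP2 and TCEAL7 followed the same order, with 22.6 to 29.2 and 28.7 to 56.5 CPM in the 30-week controls. In these 4 genes the one 15-week control that stood above the other, replicate 2, lay toward the level of the later controls. ITGB8 fell with time in both lines, from 58.2 to 98.6 CPM at 24 h to 16.7 and 17.5 CPM in the 15-week controls and 2.72 to 3.39 CPM in the 30-week controls, and its exposed cells remained higher at both later times (30.3 and 56.8 CPM, then 12.7 to 22.1 CPM). COL1A2 differed between the later times (-4.86, adjusted p = 0.0026): it fell at 15 weeks but was at 1.74 to 5.01 CPM in exposed cells against at most 0.65 CPM in controls at 30 weeks. SLC5A3 was higher in exposed cells at 30 weeks too, at 159 to 231 CPM against 113 to 144 CPM, and a difference from 15 weeks was not shown (0.68, adjusted p = 0.367).

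**Figure D4:**
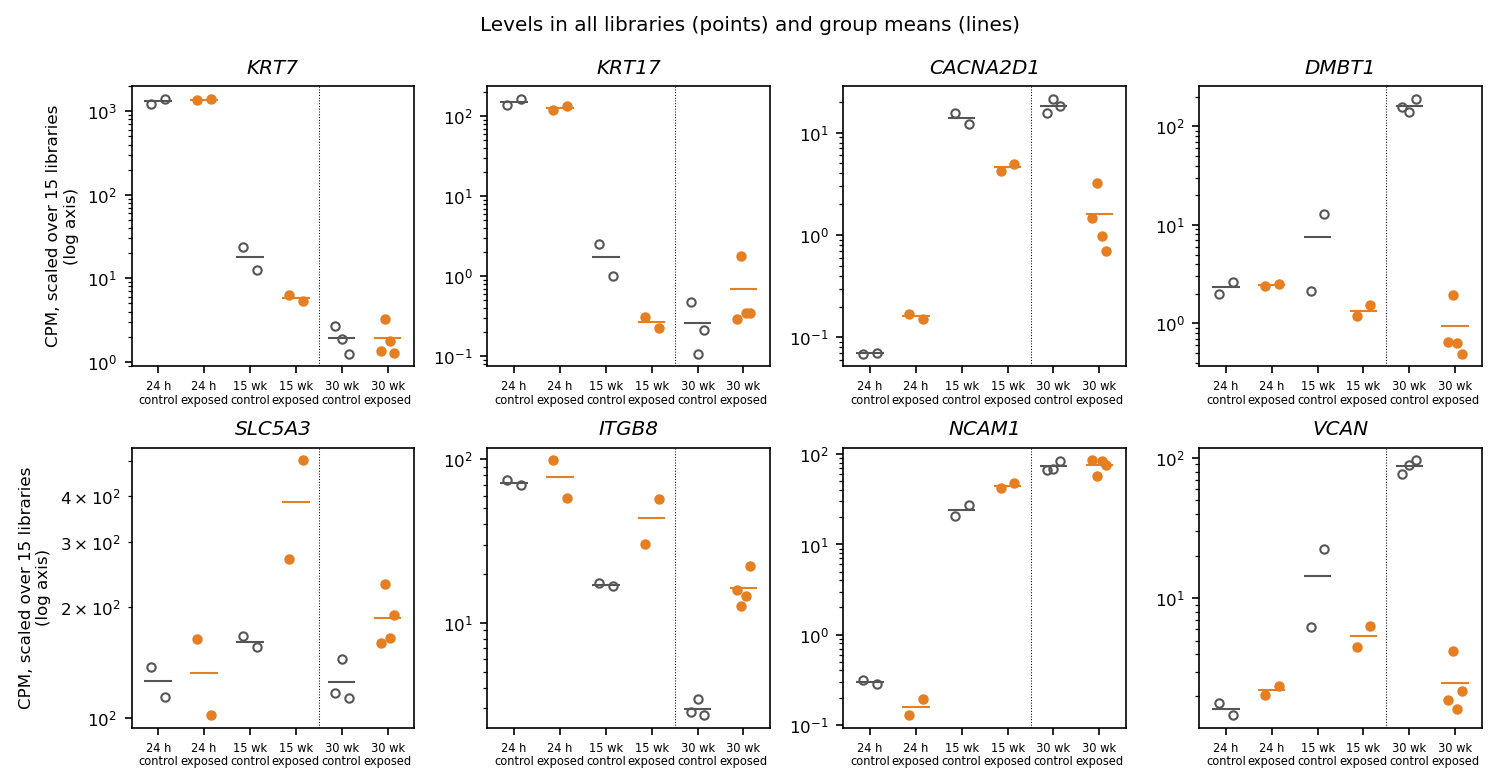
Levels of 8 genes in every library. The y axis is CPM on a scale common to the 15 libraries (log axis), points are libraries and lines are group means, open grey for controls and filled orange for exposed cells, with a dotted line before the second batch. KRT7 and KRT17 drop between 24 h and 15 weeks in both lines, DMBT1 and VCAN are highest in the 30-week controls, and ITGB8 is higher in exposed than in control cells at 15 and 30 weeks.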

How the data were processed

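RNA of BEAS-2B cells was sequenced after depletion of ribosomal RNA with a stranded kit (TruSeq Stranded Total RNA), on 15 libraries. Per the labels and the study's methods, the authors trimmed reads with Rfastp, keeping those of at least 20 bases, and aligned them to GRCh38 with Rsubread. The deposited values are raw read counts per Entrez gene, not normalised, made with featureCounts (the submitters' processing notes also name bcl2fastq and hg38). The strand setting and the treatment of reads with several matches are not given in the sources used here. Counts were read for the 2 exposed and 2 control libraries of 15 weeks, with symbols for 27745 of 28395 genes. Genes were filtered with filterByExpr, scaled by TMM and tested with edgeR 4.0.16 (glmQLFit and glmQLFTest, R 4.3.3) on those 4 libraries alone, where the authors used limma-voom with surrogate variables with covariates not given in the sources used here. P-values were adjusted by Benjamini-Hochberg over all genes tested, and DEGs had an adjusted p under 0.05. The script was tested on simulated data. Differences between time points were tested as interaction terms in edgeR, over the 8 libraries of batch 1 (24 h) or all 15 (30 weeks). Alternatives used DESeq2 1.42.0, limma 3.58.1 with sva 3.50.0 (2 surrogate variables), other filters and scalings, thinned counts, a replicate block and left-out libraries. Fits with 1 library in a group assume that it varies like the others. Named genes are the 15 largest changes in each direction among DEGs with a mean of at least 1 CPM and groups that did not overlap, called members of the gene lists, and the study's 2 panels. Results of some genes that met this rule are not reported here. The members and lists were chosen with earlier results of these data known. Log2 CPM used a prior count of 2 where libraries were correlated and for deviations of libraries by chromosome. Deviations of libraries by GC class used 0.5 CPM. Total counts were 27257483 to 30245594, and genes under 1 CPM rest on few counts. Identical replicates were looked for: replicate pairs differed beyond sampling noise, at a mean chi-square per gene of 9.65 (control) and 9.54 (exposed).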

Additional observations from a re-analysis of the deposited data

Results flagged for a closer look

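Among the genes examined (those with the largest changes and the members of the study's panels, 70 in all), 2 tests of the difference in effect between 15 weeks and 24 h and 22 of that between 15 and 30 weeks passed an adjusted p of 0.05 in edgeR. Among all genes tested, 4 of 16077 (0.0249%) and 794 of 16740 (4.74%) passed. The genes examined were picked on values of these same libraries, so their counts are a description. Values below are the 15-week log2 fold change minus that of the other time. Against 24 h they were -1.69 for KRT7 and -1.80 for PTGFR.

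Against 30 weeks the change at 15 weeks was more positive for DMBT1 (4.96), CRABP2 (4.16), VCAN (3.73), TCEAL7 (3.20), SNAI2 (2.92), NRG1 (2.09), CACNA2D1 (1.93), MKX (1.33), PLSCR4 (1.10), IGFBP3 (0.94) and NCAM1 (0.87). It was more negative for COL1A2 (-4.86), KRT17 (-4.13), PTGFR (-2.97), KRT19 (-2.39), FBLN1 (-2.35), FN1 (-2.29), TNC (-1.48), IGFBP2 (-1.43), MET (-1.16), ITGA2 (-1.13) and CDH2 (-0.97). NRG1 rose at 15 weeks and was lower in exposed cells at 30 weeks. DMBT1, CRABP2 and TCEAL7 were lower in exposed than in control cells at both times, with the larger difference at 30 weeks. At 15 weeks control replicate 2 carried much of these differences, as given above, and at 30 weeks the controls were high. For DMBT1 the controls were at 138 to 191 CPM at 30 weeks and at 2.01 and 2.62 CPM at 24 h. The 30-week libraries are a second batch, so batch and time cannot be told apart.

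In the 4 exposed libraries of 30 weeks, 6 of 29 genes with large 15-week changes had 1 library far from the other 3 by Dixon's criterion, each time replicate 2: SLC39A8 (10.3 CPM), PTGFR (3.99), TRIM55 (2.49), DMBT1 (1.96), KRT17 (1.82) and SLC9A9 (1.47). Chance marks about 1 in 20 groups. Leaving that library out raised the number of genes whose effect differed between 15 and 30 weeks from 794 to 1519.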

How the results depend on the processing

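The 304 calls at 15 weeks came to 302 with DESeq2, 276 with limma-voom, 207 with thinned counts and 349 with relative log expression scaling. Upper-quartile scaling gave 334 and moved the share of calls that were higher from 56.6% to 48.2%. Other choices changed the number by more than 1.5 times: none with all 15 libraries in edgeR (0, with 823 at an unadjusted p under 0.05), 10 with limma-voom on all libraries and surrogate variables, 29 with the batch 1 libraries, 743 without a filter, 40 at an adjusted p under 0.01, 39 with a fold change of at least 2, and 171 with the correction for GC content and length. With the replicate block it was 1087. The labels share replicate numbers, but deviations of same-numbered libraries correlated at 0.0515 over 2 pairs, so the numbers were not taken to pair the samples. Leaving out 1 library gave 245 (without control replicate 2) to 701 (without exposed replicate 1). Every DEG kept its direction in every fit that tested it, but those fits all reuse 15-week libraries that gave the calls. The kept direction is therefore no separate evidence.

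The 4 genes whose effect differed between 15 weeks and 24 h came to 54 with DESeq2, 0 with the replicate block, 0 with all libraries and 233 without a filter, and to 0 to 121 with 1 library left out, the highest without exposed replicate 1 of 24 h and 0 without control replicate 1 of 24 h or exposed replicate 2 of 15 weeks. The 794 that differed between 15 and 30 weeks came to 1118 with DESeq2, 670 with the replicate block and 393 (without exposed replicate 2 of 15 weeks) to 1519 (without exposed replicate 2 of 30 weeks) with 1 library left out. The cause was not tested. Among genes not called, KRT19 (-0.472) ranged from -0.878 to 0.0829 with 1 library left out, above 0 without control replicate 1. IGFBP2 (0.102) ranged from -0.109 to 0.346, below 0 without control replicate 2. LRP1 (-0.0264) ranged from -0.248 to 0.238, above 0 without control replicate 2 or exposed replicate 1 (0.0712), and was at 0.0273 with the correction for GC content and length. With 2 libraries a group the spread rests on few degrees of freedom, which limits all calls.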

Other observations

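A group of transport and osmolyte genes that belongs to none of the lists, and was picked after its values were seen, rose at 15 weeks. SLC38A2, a sodium-coupled importer of neutral amino acids, was at 875 and 965 CPM in the controls and 1282 and 1900 CPM in the exposed libraries (0.79 ± 0.12, adjusted p = 0.00194 in edgeR). Its relatives SLC38A1 (0.50 ± 0.09) and SLC38A4 (0.69 ± 0.16) rose as well. Without exposed replicate 2 the values were 0.48 for SLC38A2 and 0.32 for SLC38A1, both still called, and 0.28 for SLC38A4 (adjusted p = 0.462). SLC38A2 and SLC38A4 were not called with DESeq2 (adjusted p = 0.107 and 0.331), and SLC38A4 was not called with limma-voom or with the correction for GC content and length either. NFAT5, the transcription factor of the response to high salt, was at 46.0 and 57.0 CPM against 69.5 and 91.8 CPM (0.65 ± 0.12, adjusted p = 0.0113), beside SLC5A3. Of these, SLC38A1 and NFAT5 were stable DEGs. Exposed replicate 2 was the highest library for each of them. Other genes of the same functions did not pass: SLC6A6, the taurine importer (0.31, adjusted p = 0.0982), AKR1B1, which makes sorbitol (0.36, adjusted p = 0.281), SLC7A5 (-0.17) and ASNS (-0.02).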
